A study of Arabidopsis thaliana with 4 samples.

Results

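Transcripts of 10 genes that mark the identity of the plant epidermis or build its waxy cuticle were followed in Arabidopsis thaliana seedlings exposed to volatile carbonyl compounds. The genes were PDF1 (AT2G42840), ML1 (AT4G21750), PDF2 (AT4G04890), LTP1 (AT2G38540), KCS1 (AT1G01120), CER1 (AT1G02205), CER3 (AT5G57800), CER6 (AT1G68530), FDH (AT2G26250) and ADS1 (AT1G06080). They were taken by locus from 25418 loci with a matched array probe, counted after outlying spots were left out. Before that step 25426 loci had one. All 10 had a probe, 26 probes in all, and all 10 were among the 18412 genes whose signal was well above background on all 4 arrays. They were chosen by their log2 differences from the solvent control on these same arrays together with their known roles, so the values below are a description and carry no test.

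All plants were wild type of the Columbia-0 ecotype, and the labels give the tissue as seedlings. All groups had 3 days of cold at 4 °C and growth at 23 °C. The day had 14 h of light, at 80 µmol per square metre and second, and 10 h of dark. The plants were kept for 30 min at 25 °C inside a closed box of 340 cm3 that held 3 µl of acetonitrile, the solvent and control, or the same volume of a 1 M solution of (E)-2-pentenal, 3-hepten-2-one or crotonaldehyde in it, at a nominal 10 µM. Every group therefore met acetonitrile vapour. The ketone 3-hepten-2-one is unsaturated, as are the aldehydes (E)-2-pentenal and crotonaldehyde, whose chains differ by 1 carbon. Each group is 1 one-colour array of RNA pooled from at least 6 plants, with no replicate, and the labels give no plant age.

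The outermost cell layer of the shoot, the protoderm, takes its identity from homeodomain leucine zipper factors of class IV, among them ML1 and PDF2. These factors bind a short promoter element, the L1 box, that is found in epidermal genes such as PDF1. Epidermal cells elongate fatty acids to very long chains, turn them into alkanes, alcohols and esters, and export them as wax, which together with the polyester cutin forms the cuticle that limits water loss.

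Levels are given as multiples of the 75th percentile of signal on the same array, and differences as log2 of the ratio of levels, for the brightest probe of each gene. The error after a ± sign is the one the scanner software gives for each spot, carried to the log2 difference. It covers the measurement within an array only. A difference of 2-fold or more was counted as lower or higher. The 75th percentile itself lay between 1048 and 1667 signal units, lowest for crotonaldehyde, and 72.6% to 74.4% of spots were well above background. Crotonaldehyde was hybridised on a slide of its own with its own scan, while the other 3 arrays had a slide and a scan in common. The slide and the treatment therefore cannot be told apart in any comparison with crotonaldehyde. In whole seedlings, fewer cells of a type and less RNA per cell cannot be told apart either.

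After crotonaldehyde, all 10 genes lay below the solvent control, by amounts that ranged from 1.12-fold to 596-fold. PDF1, ADS1 and CER1 were lower by 596-fold, 122-fold and 10.97-fold. FDH and KCS1 were lower by 2.56-fold and 2.08-fold, and the other 5 genes differed by less than 2-fold. The 5 genes past 2-fold stand beside a background of 15.2% of all compared genes at least 2-fold lower after crotonaldehyde, and 8.89% at least 2-fold higher. The median of the 10 genes was -1.02 on the log2 scale, against 0.01 for all 18412 genes. PDF2, at -0.16 ± 0.20 on the log2 scale, was within 2 scanner errors of the control.

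The other volatiles left most of these transcripts near the control. After (E)-2-pentenal only ADS1 was past 2-fold, at 2.99-fold lower, where 1.87% of all compared genes were lower and 4.5% higher. After 3-hepten-2-one, ADS1 was 2.05-fold lower and CER3 2.13-fold higher, where 4.57% of genes were lower and 6.12% higher. The medians of the 10 genes were -0.24 and -0.00 on the log2 scale, against -0.06 and -0.07 for all compared genes. These comparisons share the acetonitrile array. The same shares of all compared genes stand beside the list counts for these volatiles below.

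**Figure D1:**
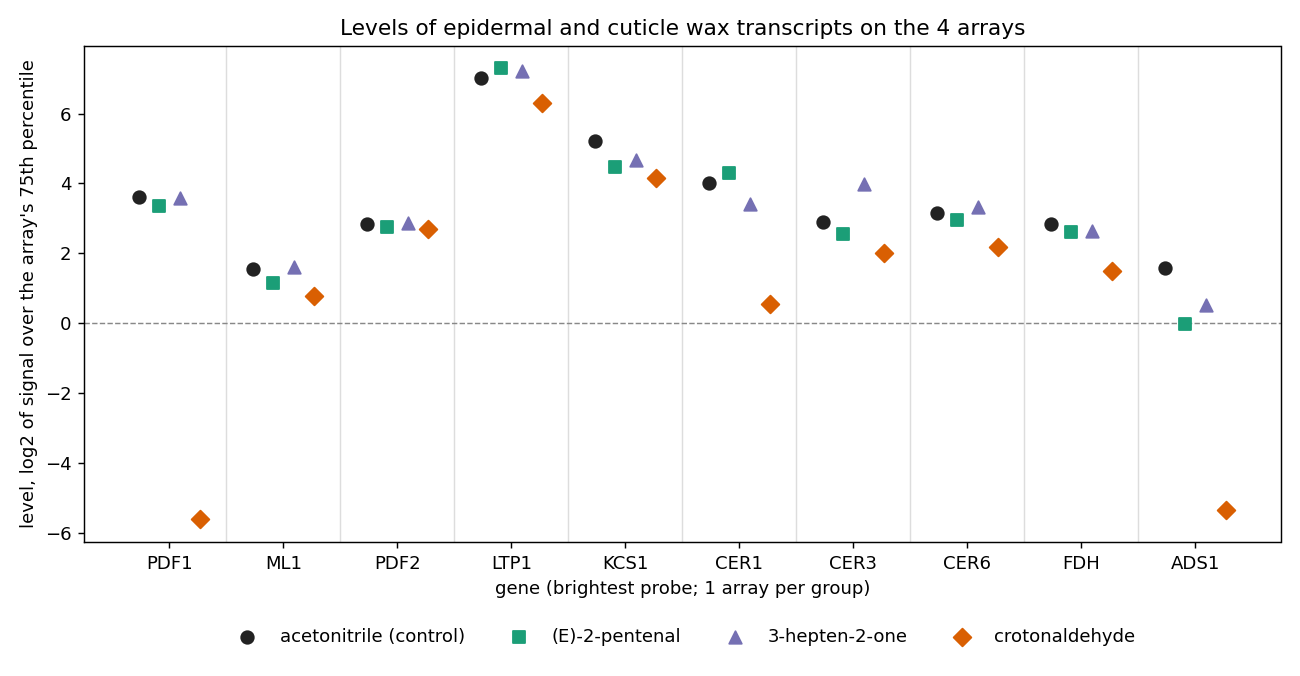
Level of each gene on each of the 4 arrays, as log2 of the signal over that array's 75th percentile (dashed line), for the brightest probe and with 1 array per group. The orange diamonds of crotonaldehyde lie lowest for all 10 genes, by the widest margin for PDF1 and ADS1, and those of PDF2 lie close to the other 3 arrays.

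Of the epidermal regulators, PDF2 differed little between the arrays. It had levels of 7.18 on the acetonitrile array, 6.76 after (E)-2-pentenal, 7.26 after 3-hepten-2-one and 6.43 after crotonaldehyde. These 4 levels lie within 1.13-fold of each other. The log2 differences from the control were -0.09, 0.02 and -0.16, each ± 0.20. ML1, the close paralogue of PDF2, had levels of 2.92, 2.23, 3.07 and 1.71 in the same order. Its level was lower after crotonaldehyde by -0.77 ± 0.20 on the log2 scale, below 2-fold, and by -1.01 at its other, dimmer probe. The ML1 probes gave -0.39 and -0.62 after (E)-2-pentenal, and 0.07 and -0.09 after 3-hepten-2-one. ML1 and PDF2 are similar in sequence, and whether a probe of either binds transcripts of the other was not tested.

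The wider family of class IV homeodomain leucine zipper factors had 9 of its 16 listed members measured on all 4 arrays, ML1 and PDF2 included. After crotonaldehyde 2 of the 9 were at least 2-fold lower and none was higher, beside the 15.2% of all compared genes that were lower, with a list median of -0.77. The lowest was GL2 (AT1G79840), which acts in trichomes and root hair patterning, at 17.8-fold lower. Its signal was 1024 on the acetonitrile array, 980.5 after (E)-2-pentenal, 1048 after 3-hepten-2-one and 36.1 after crotonaldehyde. HDG11 was 2.12-fold lower. After 3-hepten-2-one HDG5 was 2.53-fold higher, and after (E)-2-pentenal no member passed 2-fold.

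PDF1 encodes a proline-rich protein of the cell surface that is used as a marker of the outermost cell layer. Its levels were 12.1 on the acetonitrile array, 10.3 after (E)-2-pentenal, 12.0 after 3-hepten-2-one and 0.0203 after crotonaldehyde. The first 3 arrays are close to each other, with log2 differences from the control of -0.24 and -0.02, each ± 0.20. The crotonaldehyde array stands apart, at -9.22 ± 0.25 on the log2 scale, so that 0.168% of the control level was left. With this scaling PDF1 had the lowest difference of the 18412 genes compared. That ranking leaves out genes not well above background on every array, including those that fell to the floor after crotonaldehyde. The processed signal of PDF1 on the crotonaldehyde array was 21.3, against a lowest signal called well above background of 10.6. The size of the fold therefore rests on a signal near the floor of detection. With normexp background correction the difference was -7.28, and with the mean over its probes -8.03.

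The 5 PDF1 probes gave the same direction but not the same size. From 10375 signal units in the control, the second brightest probe came to 8.5 after crotonaldehyde, which is not well above background, and was at least 618-fold lower. The next probe went from 9923 to 12.0, a 521-fold difference. The fourth went from 1211 to 2.3, also not well above background, and was at least 72.1-fold lower. The dimmest in the control went from 1033 to 41.5, a 15.6-fold difference and the smallest of the 5. Before background subtraction the 5 spots read 45.0 to 81.0 on the crotonaldehyde array, over local backgrounds of 27.5 to 35.5. The same probes lay between -0.29 and -0.12 after (E)-2-pentenal and between -0.03 and 0.03 after 3-hepten-2-one, on the log2 scale.

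**Figure D2:**
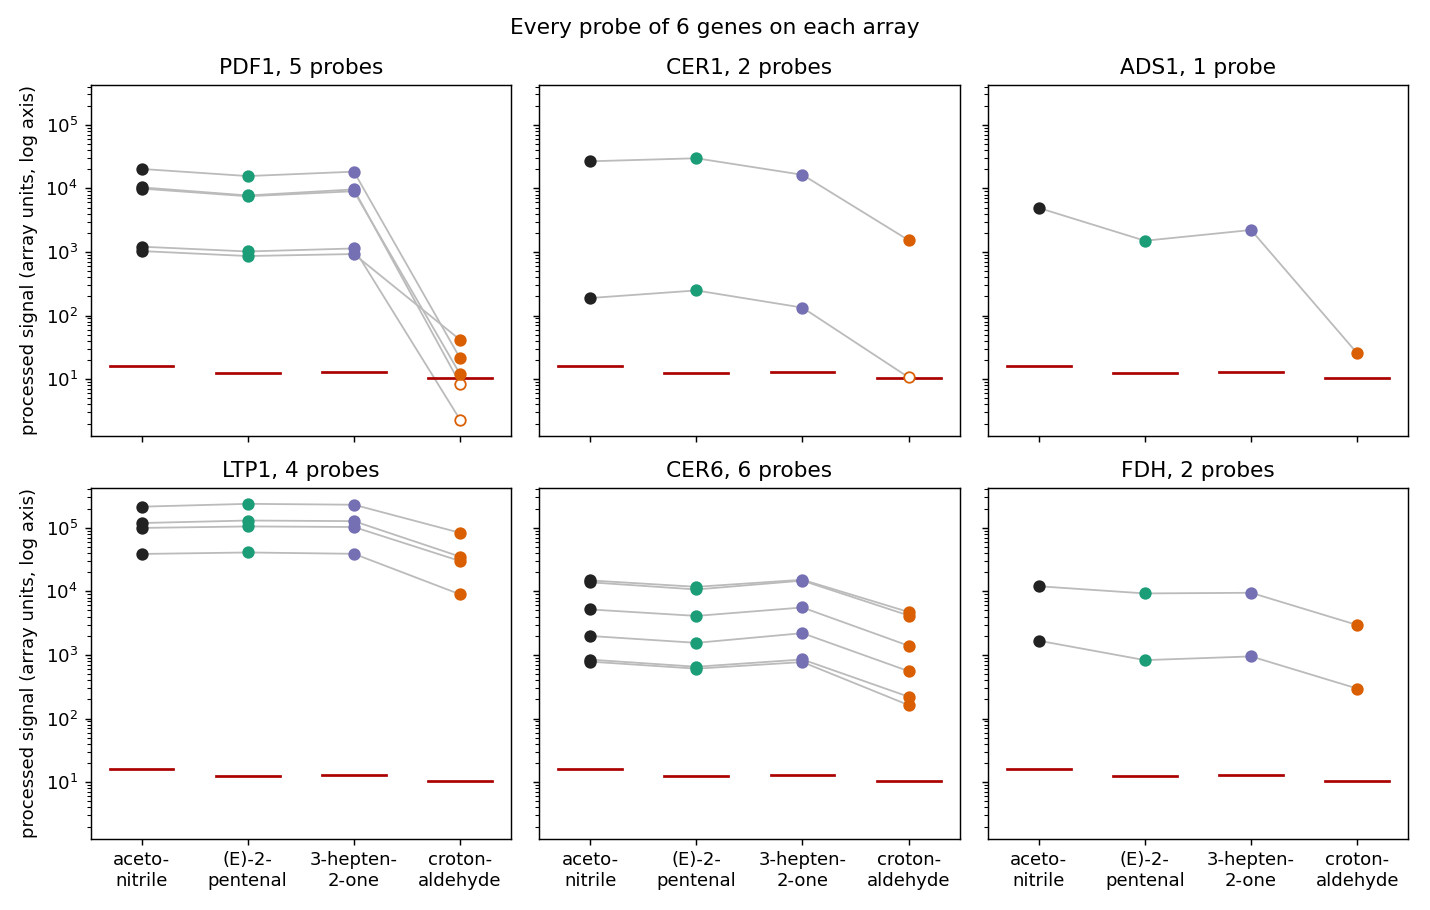
Processed signal of every probe of PDF1, CER1, ADS1, LTP1, CER6 and FDH on each array, on a log axis. Lines join the same probe, open circles are spots not well above background, and red bars mark the lowest signal called well above background on each array. The 5 PDF1 probes lie between 2.3 and 41.5 after crotonaldehyde and at 863 or more on the other 3 arrays.

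PDF1 was bright in the control, where 846 other genes had at least its signal. Of these, 4 were at least 32-fold lower after crotonaldehyde, and over all compared genes 36 were, or 0.196%. The 5 genes outside the set whose 3 differences from the control came closest to those of PDF1, by Euclidean distance over the 3 log2 values, were AT2G33850, AT4G29030, PYK10 (AT3G09260), AT3G05727 and LTP6 (AT3G08770). Their distances were 0.476, 1.13, 1.502, 2.70 and 2.98. AT2G33850 had signals of 21382 on the acetonitrile array, 22736 after (E)-2-pentenal, 19069 after 3-hepten-2-one and 24.5 after crotonaldehyde. AT4G29030 went from 23129 in the control to 50.8 after crotonaldehyde, with probes at -8.16 and -10.10 on the log2 scale. PYK10, a beta-glucosidase abundant in roots, was 316-fold lower after crotonaldehyde, with its 7 probes between -8.59 and -5.31. The same gene was 2.12-fold lower after (E)-2-pentenal. LTP6, a lipid transfer protein, was 76.0-fold lower after crotonaldehyde. AT3G05727 was at -6.64 on the log2 scale, from a control signal of 2092 to 13.2.

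**Figure D3:**
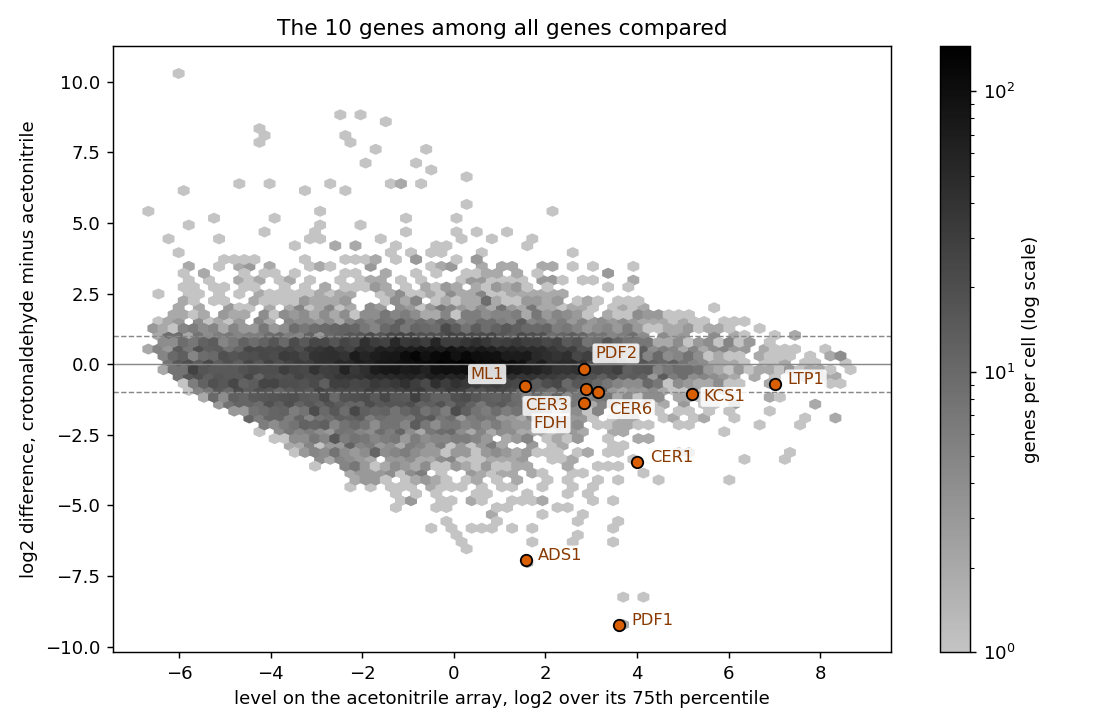
Log2 difference of crotonaldehyde from acetonitrile (vertical axis) against the level on the acetonitrile array (horizontal axis, log2 over the 75th percentile) for 18412 genes, with darker cells holding more genes on a log colour scale and dashed lines at 2-fold. PDF1 lies at the bottom of the cloud at -9.22 and ADS1 at -6.93, while PDF2 lies near 0.

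LTP1 encodes a small secreted protein of the epidermal cell wall that binds lipids. Its levels were 129 on the acetonitrile array, 157 after (E)-2-pentenal, 150.45 after 3-hepten-2-one and 79.5 after crotonaldehyde. The log2 differences were 0.28, 0.22 and -0.70, each ± 0.20. The brightest probe was thus below 2-fold after crotonaldehyde, while the other 3 probes were past it, at -1.06, -1.09 and -1.44. All 4 probes were above the control after the other volatiles, by 0.21 to 0.28 for (E)-2-pentenal and by 0.13 to 0.22 for 3-hepten-2-one.

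Of 12 listed lipid transfer proteins, 6 were measured on all 4 arrays, LTP1 included. After crotonaldehyde LTP6 was the only 1 of the 6 at least 2-fold lower, beside 15.2% of all compared genes. The list median was -0.47. Among members measured on 1 side only, AT5G01870 was at least 25.1-fold lower and LTP4 (AT5G59310) at least 2.54-fold lower. LTP3 (AT5G59320) and LTP4 were higher after the other volatiles. LTP4 was 24.9-fold higher after (E)-2-pentenal and 11.9-fold higher after 3-hepten-2-one, with signals of 42.6 on the acetonitrile array, 965 and 467 after those volatiles and 4.1 after crotonaldehyde. LTP3 was 16.0-fold higher after (E)-2-pentenal and 2.97-fold higher after 3-hepten-2-one. Its signals were 673 on the acetonitrile array, 9836 after (E)-2-pentenal, 1834 after 3-hepten-2-one and 651 after crotonaldehyde. AT2G18370 was 3.46-fold higher after 3-hepten-2-one. LTP3 and LTP4 are similar in sequence, and whether a probe of either binds transcripts of the other was not tested.

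Of the 3 enzymes of the set that lengthen fatty acids, KCS1 and FDH were past 2-fold lower after crotonaldehyde and CER6 was just short of it. KCS1, CER6 and FDH are 3-ketoacyl-CoA synthases, the condensing enzymes of chain elongation. CER6 acts on the longest wax precursors, and FDH, FIDDLEHEAD, is known from mutants whose organs fuse through a faulty epidermis. KCS1 had levels of 36.8 on the acetonitrile array, 22.2 after (E)-2-pentenal, 25.6 after 3-hepten-2-one and 17.7 after crotonaldehyde. All 3 volatiles lay below the control, at -0.73, -0.52 and -1.06 on the log2 scale, each ± 0.20, and only crotonaldehyde passed 2-fold, narrowly. It did not under median scaling, at -0.74, or under normexp, at -0.99.

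CER6 had levels of 8.91, 7.76, 9.93 and 4.51 in the same order of arrays. Its brightest probe stayed just short of 2-fold after crotonaldehyde, at -0.98 ± 0.20, and the other 5 of its 6 probes ranged from -1.60 to -1.06. It was past 2-fold under 5 of 9 alternative settings, the lowest being -1.22 with the mean over its probes. After (E)-2-pentenal its log2 difference was -0.20 and after 3-hepten-2-one 0.16. FDH had levels of 7.21, 6.11, 6.20 and 2.82. It was lower after crotonaldehyde at both probes, by -1.36 and -1.83 on the log2 scale. For (E)-2-pentenal the brighter FDH probe gave -0.24 and the dimmer -0.88, and for 3-hepten-2-one -0.22 and -0.70.

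Among the 3-ketoacyl-CoA synthases as a family, 18 of 21 listed members were measured on all 4 arrays, KCS1, CER6 and FDH included. After crotonaldehyde 10 of the 18 were at least 2-fold lower and none higher, beside 15.2% and 8.89% of all compared genes. Their median was -1.05 on the log2 scale. Without the 3 genes of the set, 8 of 15 were lower, with a median of -1.03. KCS19 (AT5G04530) was 25.6-fold lower, from a signal of 2219 in the control to 54.5. KCS18, which makes very long chains for seed oil, was 10.3-fold lower at its brightest probe, but its 3 probes ranged from -3.97 to 0.79. The signal of that brightest probe went from 220 in the control to 13.5, near the floor of detection. The other 8 of the 18 were short of 2-fold, with KCS13 and KCS14 above the control at 0.96 and 0.74. Both were dim, with signals of 32.9 and 30.3 in the control and 40.2 and 31.8 after crotonaldehyde. The 75th percentiles of these 2 arrays were 1667 and 1048. At the brightest probe no member passed 2-fold after (E)-2-pentenal, and KCS3 alone did after 3-hepten-2-one, at 2.06-fold lower. The 3 KCS18 probes, however, ranged from -4.25 to -0.27 after (E)-2-pentenal and from -4.24 to -0.26 after 3-hepten-2-one.

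**Figure D4:**
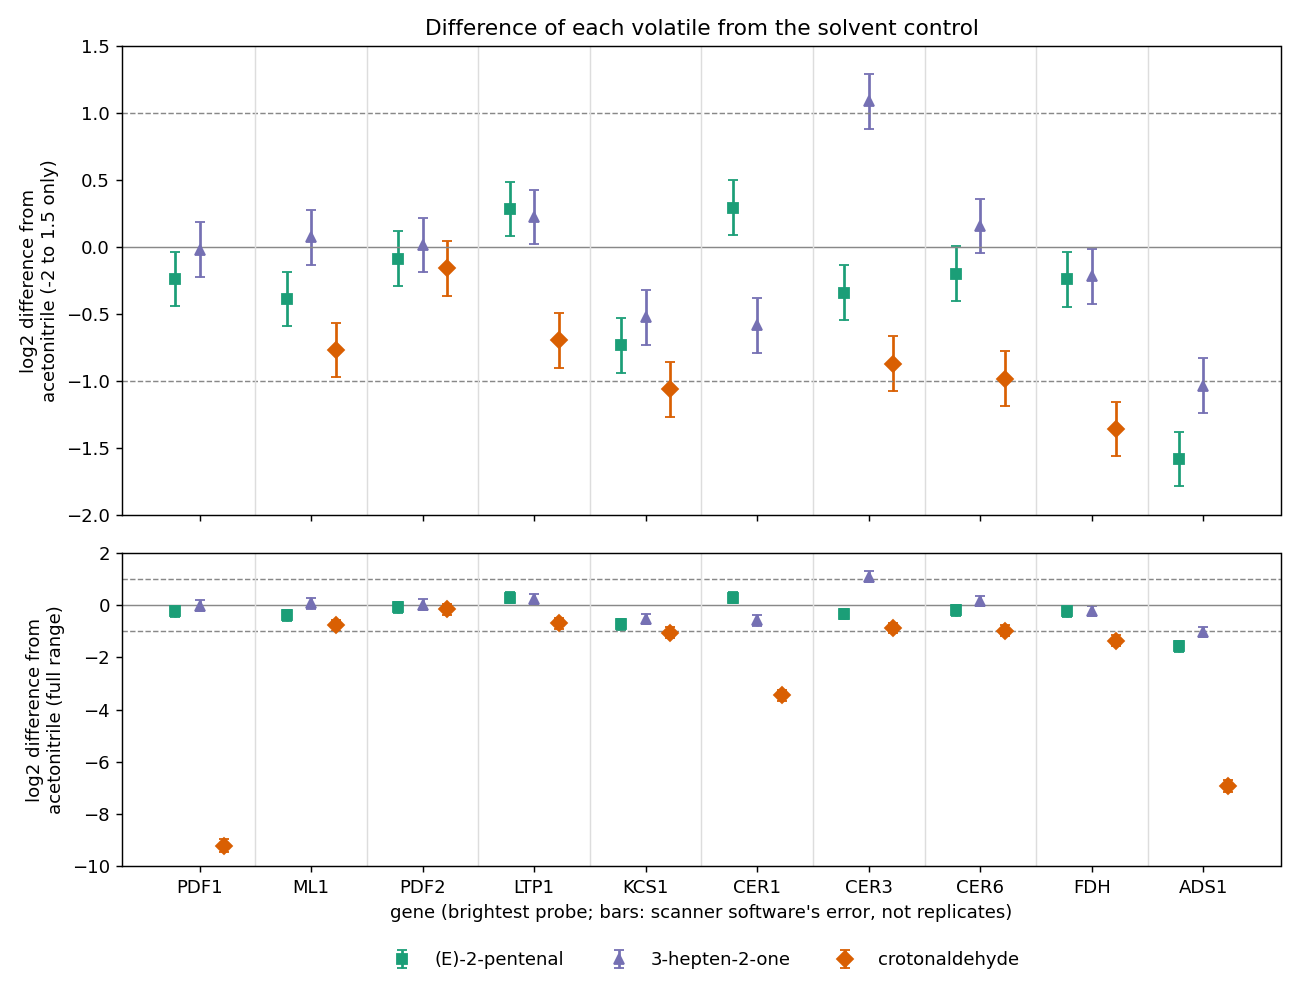
Log2 difference of each volatile from acetonitrile for the 10 genes, with bars for the scanner software's error (not replicates) and dashed lines at 2-fold. The upper panel shows the range from -2 to 1.5, where the crotonaldehyde points of PDF1, CER1 and ADS1 fall outside it. The lower panel shows the full range, with those 3 points at -9.22, -3.46 and -6.93.

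CER1 and CER3 work together to turn very long acyl chains into alkanes, the main leaf and stem waxes, and their transcripts differed from each other in pattern. CER1 had levels of 16.0 on the acetonitrile array, 19.6 after (E)-2-pentenal, 10.7 after 3-hepten-2-one and 1.46 after crotonaldehyde. The crotonaldehyde level was 9.11% of the control, at -3.46 ± 0.20 on the log2 scale, and its signal of 1528 units was far above the floor of detection. The other CER1 probe was at least 11.1-fold lower, from 189 units in the control to 10.6, not well above background. In the control 611 other genes were at least as bright as CER1, and 4 of them were as low or lower after crotonaldehyde. Over all 18412 genes compared, CER1 had rank 208 from the lowest after crotonaldehyde. (E)-2-pentenal gave a CER1 difference of 0.29 on the log2 scale, and 3-hepten-2-one gave -0.58.

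CER3, by contrast, was highest after 3-hepten-2-one. Its levels were 7.42 on the acetonitrile array, 5.87 after (E)-2-pentenal, 15.8 after 3-hepten-2-one and 4.06 after crotonaldehyde. Its log2 difference was 1.09 ± 0.20 after 3-hepten-2-one, and -0.34 and -0.87 after the aldehydes. CER3 had a single probe. Its call after 3-hepten-2-one falls below 2-fold under quantile normalization and with the authors' own scaled values.

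Of the wax synthesis enzymes outside the elongase family, 11 of 13 listed genes were measured on all 4 arrays, CER1 and CER3 included. After crotonaldehyde 6 of the 11 were at least 2-fold lower and none higher, beside 15.2% and 8.89% of all compared genes. Their median was -1.01. Without CER1 and CER3, 5 of 9 were lower, also with a median of -1.01. CER2, which takes part in elongation to the longest chains, was 4.07-fold lower and LACS1, an acyl-CoA synthetase, 2.85-fold lower. MAH1, the alkane hydroxylase, was at least 20.9-fold lower, and CER4, a reductase that makes primary alcohols, at least 9.92-fold lower. Both were well above background on the other 3 arrays and not on this 1. After 3-hepten-2-one CER4 was 8.51-fold lower, from a signal of 167 in the control to 17.98, and the wax ester synthase WSD1 was 2.26-fold lower. No wax enzyme of the list passed 2-fold after (E)-2-pentenal.

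ADS1 was the only gene of the set past 2-fold after all 3 volatiles. It encodes a membrane desaturase that puts a double bond into acyl chains. Its levels were 2.96 on the acetonitrile array, 0.990 after (E)-2-pentenal, 1.45 after 3-hepten-2-one and 0.0243 after crotonaldehyde. The control is highest, the aldehyde with the longer chain and the ketone lie between, and crotonaldehyde is far lowest. The log2 differences were -1.58 ± 0.20, -1.03 ± 0.20 and -6.93 ± 0.24. Counted from the lowest of the 18412 genes, ADS1 had rank 80 after (E)-2-pentenal, 789 after 3-hepten-2-one and 6 after crotonaldehyde. Under cyclic loess the difference after 3-hepten-2-one was -0.96, short of 2-fold. ADS1 has 1 probe, whose signal of 25.5 on the crotonaldehyde array was near the floor of detection, and normexp background correction gave -5.36.

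The related desaturases were mixed after crotonaldehyde, where 15.2% of all compared genes were at least 2-fold lower. Of 9 listed genes of the ADS family 4 were measured on all 4 arrays, and 2 of these were at least 2-fold lower, ADS1 and AT1G06360, the latter by 19.1-fold. ADS2 and ADS3, the other two, were at -0.24 and 0.31 on the log2 scale, and the median of the 3 without ADS1 was -0.24. AT1G06100, which lies next but 1 to ADS1 on the chromosome, had signals of 1134 on the acetonitrile array, 1785 after (E)-2-pentenal, 1246 after 3-hepten-2-one and 5.6 after crotonaldehyde. It was thus at least 67.5-fold lower after crotonaldehyde and not below the control after (E)-2-pentenal. The brightest probe of AT1G06350 was at least 70.6-fold lower after crotonaldehyde, from a control signal of 1186. Its 2 probes read -6.48 and -4.63 on the log2 scale. After 3-hepten-2-one its brightest probe was 2.78-fold lower, with the other at -0.57, and ADS2 was 2.30-fold lower. Members of this family are close in sequence, and whether their probes bind each other's transcripts was not tested.

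Compared with each other at the matched nominal dose and time, over 3 pairs of volatiles, the aldehydes differed most in PDF1, ADS1 and CER1. Crotonaldehyde lay below (E)-2-pentenal by 506-fold for PDF1, 40.7-fold for ADS1, 13.4-fold for CER1 and 2.17-fold for FDH. These 4 genes stand beside a background of 13.6% of compared genes at least 2-fold lower, and 5.56% higher. For ML1, PDF2, KCS1 and CER3 the difference between the aldehydes was -0.38, -0.07, -0.33 and -0.53 on the log2 scale, each ± 0.20, and for LTP1 and CER6 -0.98 and -0.78.

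Crotonaldehyde lay at least 2-fold below 3-hepten-2-one for 6 of the 10 genes, where 15.8% of compared genes were lower and 9.72% higher. The 6 were PDF1 at 588-fold, ADS1 at 59.6-fold, CER1 at 7.33-fold, CER3 at 3.88-fold, and FDH and CER6 at 2.20-fold each. The ketone and (E)-2-pentenal, whose arrays shared a slide, differed by 2-fold or more in 1 of the 10 genes. CER3 was 2.69-fold higher after 3-hepten-2-one, where 4.21% of compared genes were lower and 3.86% higher. CER1 went the other way, at -0.88 ± 0.20 on the log2 scale. The ketone lay above (E)-2-pentenal by 0.55 for ADS1, 0.46 for ML1 and 0.36 for CER6, each short of 2-fold. For PDF1, PDF2, LTP1, KCS1 and FDH the difference was between -0.06 and 0.22. With 1 array per volatile, no interval that covers plants or hybridisations can be given for any of these differences.

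Genes of the rest of the cuticle pathway were counted from lists of genes with known roles. Beside their counts after crotonaldehyde stand 15.2% of all compared genes lower and 8.89% higher. Of 13 cutin synthesis enzymes, 12 were measured on all 4 arrays, and after crotonaldehyde 10 of them were at least 2-fold lower and none higher, with a median of -2.46. LTL1, a lipase of the GDSL family, was 33.6-fold lower and CYP86A4, a fatty acid hydroxylase, 29.3-fold lower. AT5G33370 went from a signal of 1539 in the control to 10.9, not well above background, and was at least 88.6-fold lower at its brightest probe. Its 2 probes read -6.47 and -4.77 on the log2 scale. The 6 cuticle lipid exporters had 3 members lower and none higher, with a median of -1.05, led by the transporter ABCG13 at 3.33-fold and the lipid transfer protein LTPG2 at 2.34-fold. No cutin or export gene passed 2-fold after (E)-2-pentenal or 3-hepten-2-one.

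Transcription factors of the cuticle were mixed. Of 9 measured on all 4 arrays, 5 were lower and 1 higher after crotonaldehyde, beside 15.2% and 8.89% of all compared genes. Their median was -1.06. MYB106 and MYB16, which promote cuticle formation and conical cells, were 17.6-fold and 11.9-fold lower, and SHN2 was at least 9.49-fold lower. SHN3, of the same small family as SHN2, was the 1 that was higher, by 3.36-fold, with probes at 1.75 and 2.71. After 3-hepten-2-one SHN3 was 2.11-fold lower at its brightest probe, with probes at -1.08 and -0.25, and MYB16 2.05-fold lower. DEWAX (AT5G61590), a repressor of wax genes, was 2.78-fold lower after (E)-2-pentenal and 6.78-fold lower after 3-hepten-2-one. Its signals were 27676 on the acetonitrile array, 9076 after (E)-2-pentenal, 3748 after 3-hepten-2-one and 9610 after crotonaldehyde. These signals are not scaled, and the 75th percentiles of the acetonitrile and crotonaldehyde arrays were 1667 and 1048. Scaled to them, DEWAX was lower after crotonaldehyde but short of 2-fold. MYB94, an activator of wax genes, was 2.05-fold lower after (E)-2-pentenal.

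**Figure D5:**
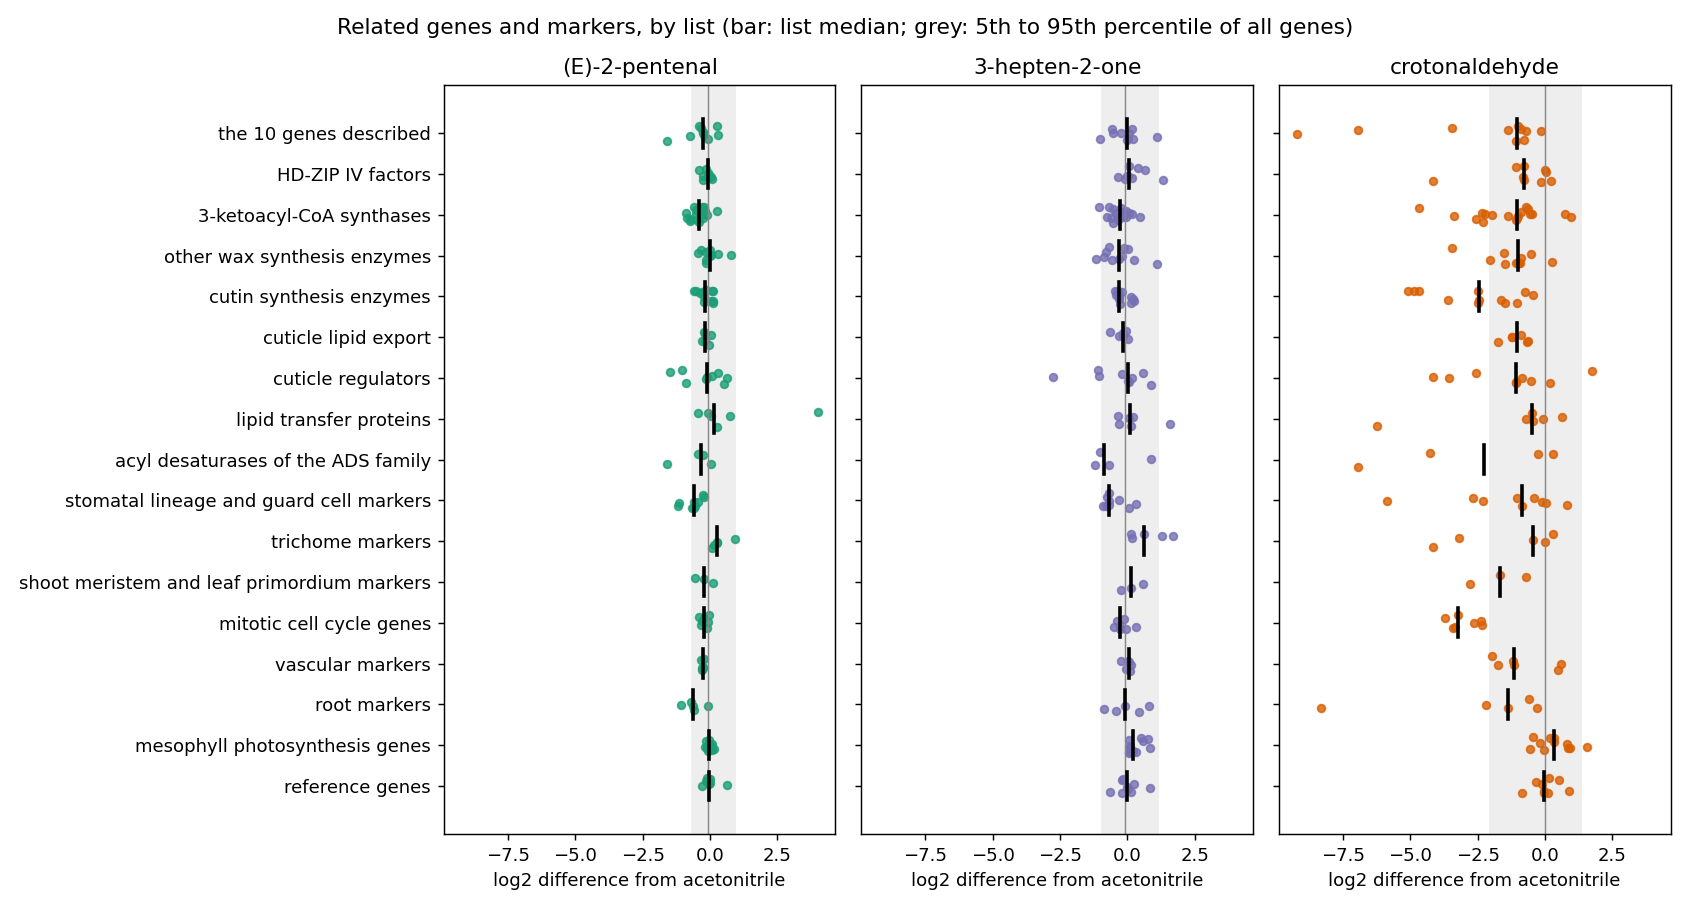
Log2 difference from acetonitrile of every gene measured on all 4 arrays, by list (points), with the list median (black bar) and the range from the 5th to the 95th percentile of all compared genes (grey), on 1 axis range for the 3 volatiles. After crotonaldehyde the cutin enzymes and the mitotic genes have medians of -2.46 and -3.23, and the reference genes one of -0.04.

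Markers of other cell types moved on the crotonaldehyde array as well, and their part in the values of the 10 genes was not tested. On that array 15.2% of all compared genes were at least 2-fold lower and 8.89% higher. All 7 mitotic cell cycle genes were at least 2-fold lower, by -3.72 to -2.35 on the log2 scale, and their summed level was 6.11 on the acetonitrile array, 5.52 and 5.73 after the other volatiles and 0.737 after crotonaldehyde. CYCA1;1 was 13.1-fold lower and CYCB1;2 10.7-fold. Of the 9 markers of the shoot meristem and leaf primordia, 7 were well above background on each of the other arrays and 3 after crotonaldehyde. Their summed level went from 5.95 in the control to 2.84, with ANT 6.81-fold lower and STM at least 27.9-fold lower at its brightest probe. The 2 STM probes read -6.74 and -3.69 on the log2 scale.

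Markers of specialised cells of the epidermis were mixed after crotonaldehyde. Of 9 stomatal markers measured on all 4 arrays 4 were at least 2-fold lower and none higher, with a median of -0.85. The shares of all compared genes were 15.2% lower and 8.89% higher. Of the 9 markers 7 lay below the control, and the highest was at 0.84 on the log2 scale. The receptor-like protein TMM was 58.1-fold lower and the peptide EPF2 6.36-fold lower, and the stomatal lineage factors SPCH and MUTE were at least 11.1-fold and at least 9.56-fold lower. The summed stomatal level was 4.85 on the acetonitrile array, 3.15 after (E)-2-pentenal, 3.70 after 3-hepten-2-one and 2.10 after crotonaldehyde. After (E)-2-pentenal TMM and EPF2 were 2.25-fold and 2.22-fold lower and MUTE 2.00-fold. Of 5 trichome markers 2 were lower after crotonaldehyde, GL2 and CPC, the latter by 9.14-fold, and GL1 was at least 30.8-fold lower. The median of the 5 was -0.44, with 4 below the control and the highest at 0.32. TRY and GL3 were higher by 1.68 and 1.30 on the log2 scale after 3-hepten-2-one.

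Markers of roots and of inner tissues differed among themselves. Counts after crotonaldehyde stand beside 15.2% of all compared genes lower and 8.89% higher. Root markers had a summed level of 19.2 on the acetonitrile array, 9.51 after (E)-2-pentenal, 32.8 after 3-hepten-2-one and 0.6502 after crotonaldehyde, and 3 of 5 were lower after crotonaldehyde. Most of the sum on the first 3 arrays was PYK10, and without it the sum was 1.37, 1.09, 1.38 and 0.594. PYK10 was among the lower markers, and SHR was 4.55-fold lower. Of 6 vascular markers 4 were lower after crotonaldehyde, XCP1 by 3.89-fold and IRX3 by 3.37-fold, while their summed level was 6.93 against 7.30 in the control. The 11 mesophyll photosynthesis genes had none lower and 1 higher, GAPB at 2.99-fold, with a median of 0.33. Their summed level ranged from 1886 to 2222 over the 4 arrays. None of the 9 reference genes passed 2-fold after any volatile, and after crotonaldehyde they ranged from -0.85 to 0.90.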

How the data were processed

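RNA of 4 samples, 1 per group by title, carried Cy3 label, and each sample went on 1 Agilent array, per the labels' protocols. Spot intensity in the deposited scanner files is linear and was background-subtracted within each array by the authors' software, Agilent Feature Extraction 10.10.1.1 per the file headers and 9.1 per the submitters' processing notes. The deposited flags, coded as 0 or 1, mark saturated, outlying and well above background spots. A deposited table of the authors' values equals that intensity times a constant for each array, from 1.38 to 1.98. The basis of these constants is not stated by the files or labels.

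The level was log2 of the processed signal minus that of the array's 75th percentile over 43803 non-control spots, none saturated. Outlying spots were left out, repeat spots averaged, and a gene took its brightest probe by mean signal. Of the spots, 34476 matched 1 locus of a RefSeq table (assembly TAIR10.1, used for names and order only). Repeat spots of 17 probes gave an SD of the log2 difference of 0.0793 to 0.111. Where a gene was not well above background on 1 side, its fold is a bound. The dim side then took whichever was greater, the gene's signal or the least signal that array had well above background. Genes with several probes could be above background at a dimmer probe.

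With 1 array per group nothing could be tested. The number of arrays limits the precision. The 10 genes, the 16 lists, the size rules and the comparisons were chosen with earlier results of these data known. Named genes were all 10, up to 2 highest and 2 lowest of each list past 2-fold against the control, those with a bound, and the 5 nearest PDF1. KCS13, KCS14, ADS3, TKPR2, and the values after (E)-2-pentenal or 3-hepten-2-one of CER4, LTP4, AT2G18370, AT1G06350 and MUTE, which were well above background on both arrays compared but not on all 4, were added after values were seen. Alternatives are given in the closing section. They were normexp (offset 50), quantile, median, cyclic loess and reference gene scaling, no filter on dim probes or a filter on the arrays compared, the mean over probes, and the authors' values. Normexp took the median spot signal. The steps were checked on simulated data. Tools were Python 3.11.15, numpy 2.4.6, pandas 2.3.3, matplotlib 3.10.9, R 4.3.3 and limma 3.58.1.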

Additional observations from a re-analysis of the deposited data

How the results depend on the processing

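Over 9 alternative settings, 540 values of the 10 genes were recomputed, of which 408 moved by less than the largest repeat-spot SD of 0.111 and 132 by more, and no gene past 2-fold changed direction. PDF1, ADS1 and CER1 after crotonaldehyde ranged from -9.37 to -7.28, -7.08 to -5.36 and -3.63 to -3.13. Median scaling moved the median of all genes after crotonaldehyde to 0.33, which put PDF2 at 0.16 and KCS1 at -0.74, and the number of the 10 genes at least 2-fold lower ranged from 4 to 7. After 3-hepten-2-one the count of genes of the set past 2-fold higher was 0 under quantile normalization and 0 with the authors' values, for CER3, against 1, and the count past 2-fold lower was 0 under cyclic loess, for ADS1, against 1. Over all genes, without the filter on dim probes 1250 were higher and 934 lower after (E)-2-pentenal, the counts for 3-hepten-2-one were 1916 and 1412, and 3872 higher after crotonaldehyde, where the filter left 828 and 345, 1126 and 842, and 1637. Normexp gave 214 lower for (E)-2-pentenal, 526 lower for the ketone, and median scaling 2868 higher after crotonaldehyde. Of genes past 2-fold after crotonaldehyde 36.9% were higher, against 58.8% under median scaling and 49.5% without the filter. After 3-hepten-2-one 57.2% were higher, against 46.0% with the authors' values. After (E)-2-pentenal 70.6% were higher, against 57.2% without the filter. The other 151 of 162 counts stayed within 1.5 times. Without the filter more genes are counted, and the cause of the other shifts was not tested. A slide block could not be fitted with 1 array per group. No paired analysis was possible because each group is 1 array.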

Other observations

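Over the 7 genes of the set with several probes, the brightest probe gave the smallest difference after crotonaldehyde in 6, PDF1 being the exception. LTP1 and CER6 were below 2-fold at the brightest probe and past it at 3 of 4 and 5 of 6 probes.

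The genes next to the 10 on the chromosome, up to 2 on each side, were looked at after the values were seen. Of 29 measured on all 4 arrays, 6, or 20.7%, were at least 2-fold lower after crotonaldehyde and 1 was higher, where 15.2% and 8.89% of all compared genes were. BBX14 and CRF10, each next but 1 to CER6, were at -2.48 and -2.20 on the log2 scale, and TKPR2, between CER6 and CRF10, was at 0.46. HVA22F, next but 1 to PDF1, was at -1.22, and CYP718, next to it, at -0.30.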
